A study of Homo sapiens with 15 samples.

Results

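The set comprised 8 genes that mark the epicardium and other mesothelia: WT1, TCF21, BNC1, BNC2, UPK3B, UPK1B, MSLN and ALDH1A2. They were the rows of the deposited gene table whose symbol was one of these names, 8 of 60605 genes. All 8 were present, and 7 of them passed the filter on low values, an FPKM value (fragment count scaled by gene length and library size) that reached 1 in any of the 15 libraries, as did 21206 genes in all. UPK1B did not. WT1, UPK3B and MSLN passed only through libraries of static cultures, so they could only be tested if they were high there.

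The libraries followed 1 cardiac differentiation of H1, an established human embryonic stem cell line with wild-type genotype. All cells received CHIR99021, an activator of WNT signalling, at the start (day 0) and insulin on the following day, and days 0, 1 and 2 had 1 library each that all arms share. From day 2 the cultures followed 3 arms, sampled once each on days 3, 5, 7 and 10. NP-ctrl cells remained undisturbed in static culture without another inducer, and NP-IWP2 cells remained static but were given IWP2, which blocks the secretion of WNT ligands. Passaged cells were lifted with EDTA on day 2 and replated more sparsely with the ROCK inhibitor Y27632 and no WNT inhibitor, so density and Y27632 cannot be told apart from detachment in any comparison with this arm. With 1 library per arm and day there was no biological replicate, and H1 is a single line. Intervals on single libraries therefore cover counting error only. Total counts ranged from 13254723 to 20250115 with a median of 15269132, and the mitochondrial share of counts ranged from 1.53% to 10.3%, on days 3 and 10 of the passaged arm.

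The epicardium is the mesothelial sheet that covers the heart. It arises from the proepicardium, a cluster of cells beside the septum transversum and the liver bud, and sheds cells that become cardiac fibroblasts and vascular smooth muscle. WT1 and TCF21 are transcription factors of this layer, the basonuclins BNC1 and BNC2 are zinc finger proteins of mesothelial and other epithelial cells, and UPK3B, UPK1B and MSLN are membrane or cell surface proteins of mature mesothelium. ALDH1A2 makes retinoic acid, a signal that the epicardium releases to the heart muscle. None of these genes is exclusive to the epicardium. WT1 also marks kidney and gonad precursors, TCF21 also marks head muscle and fibroblast precursors, and ALDH1A2 is active in early lateral mesoderm and somites.

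On GRCh38 the genes lay on 7 chromosomes, at chr11:32387775-32435564 (WT1, minus strand), chr6:133889113-133895553 (TCF21, plus), chr15:83255884-83284664 (BNC1, minus), chr9:16409503-16870843 (BNC2, minus), chr7:76510525-76516522 (UPK3B, plus), chr3:119173517-119205143 (UPK1B, plus), chr16:760734-768865 (MSLN, plus) and chr15:57953424-58497866 (ALDH1A2, minus). Promoter sequences were taken from RefSeq (GRCh38.p14), which matched 7 of the 8 genes, and the 250 bases before each transcription start were searched on both strands for 5 motifs. Those of WT1, TCF21 and BNC1 are shown because these are the transcription regulators whose levels separated the arms and whose windows lie clear of annotated exons of their own gene. The WT1 window is shortened by 25 bases at its 3′ end for that reason. Capitals mark the searched motifs, which in these windows were the E-box CAGCTG, the SP and KLF motif GGGCGG or its reverse complement CCGCCC, and the GATA motif AGATAA, whose reverse complement is TTATCT.
WT1, chr11:32435565-32435789, minus strand: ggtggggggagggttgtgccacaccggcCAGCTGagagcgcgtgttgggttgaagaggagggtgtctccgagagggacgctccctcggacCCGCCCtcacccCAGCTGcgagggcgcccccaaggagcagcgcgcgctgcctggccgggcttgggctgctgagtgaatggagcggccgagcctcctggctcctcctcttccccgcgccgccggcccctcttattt
TCF21, chr6:133888863-133889112, plus strand: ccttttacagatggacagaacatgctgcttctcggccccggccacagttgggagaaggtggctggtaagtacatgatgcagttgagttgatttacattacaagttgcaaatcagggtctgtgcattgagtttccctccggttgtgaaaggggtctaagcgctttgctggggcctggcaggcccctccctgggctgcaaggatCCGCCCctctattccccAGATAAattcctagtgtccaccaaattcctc
BNC1, chr15:83284665-83284914, minus strand: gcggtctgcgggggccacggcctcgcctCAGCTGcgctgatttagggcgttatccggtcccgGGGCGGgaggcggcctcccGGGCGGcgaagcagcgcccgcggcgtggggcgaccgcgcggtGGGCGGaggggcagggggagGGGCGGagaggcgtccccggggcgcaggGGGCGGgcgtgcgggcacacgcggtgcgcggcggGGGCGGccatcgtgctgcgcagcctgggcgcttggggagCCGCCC

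The windows differed in composition. The GC content was 81.6% for BNC1, 76.8% for BNC2, 72.8% for ALDH1A2, 70.4% for WT1, 67.2% for UPK3B, 56.8% for UPK1B and 52.8% for TCF21, beside a median of 58% over 34943 promoters. The WT1 window held CAGCTG 222 and 148 bases before the start, and BNC1 held it 222 bases before. CAGCTG occurred in 14.0% of all promoters. TCF21 held AGATAA 31 bases before its start, a motif present in 9.19% of promoters. GGGCGG or CCGCCC occurred 7 times in the BNC1 window, and 42.5% of promoters held at least 1 copy. The TEAD motif GGAATG or CATTCC was found only upstream of UPK1B among the 7 windows (11.9% of all promoters), and the nuclear receptor half-site AGGTCA or TGACCT in none of them (12.1%). These matches describe letters and not binding. Much of the WT1 window also lies within exons of WT1-AS, the antisense gene that starts from the opposite strand, and the TCF21 window lies within an exon of the antisense gene TARID.

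In undifferentiated cells and through day 2 the set was low, and all members but BNC2 had at most 18 counts per library. The summed FPKM of the 8 genes was 2.36, 0.98 and 1.05 on days 0, 1 and 2, and BNC2 gave 1.97, 0.55 and 0.52 of these sums. From day 3 the sum in NP-ctrl went from 11.4 through 35.6 and 74.8 to 92.4 on day 10. In NP-IWP2 the sums of days 3, 5, 7 and 10 were 6.04, 26.1, 26.6 and 28.7. In passaged cells they were 7.14, 13.9, 3.07 and 0.85, with ALDH1A2 contributing most on days 3 and 5. By day 10 the number of genes with an FPKM of at least 1 was 6 for NP-ctrl, 5 for NP-IWP2 and 0 for the passaged arm. Because these are bulk libraries, fewer cells of a type and less RNA per cell cannot be told apart, here and in all values that follow.

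**Figure D1:**
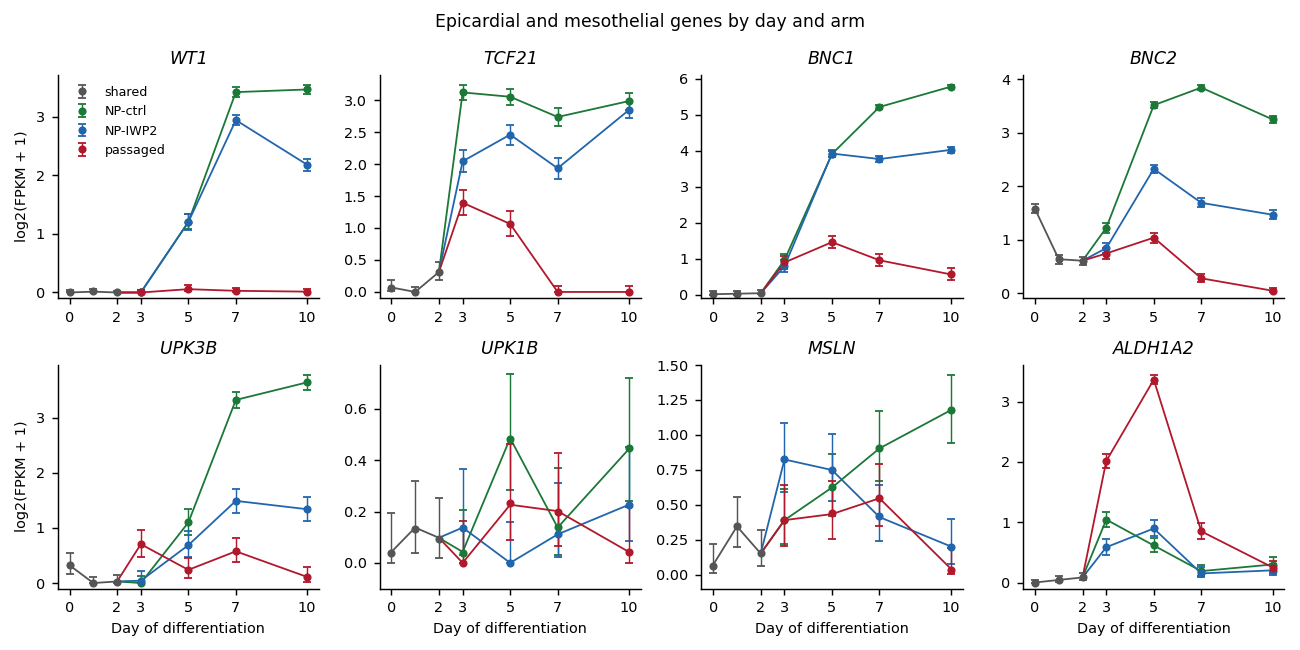
Level of each of the 8 genes as log2(FPKM + 1) against the day of differentiation, 1 point per library, with exact 95% Poisson intervals that cover counting error only. WT1, BNC1, BNC2 and UPK3B were higher in static than in passaged libraries on days 5 to 10, whereas ALDH1A2 peaked in passaged cells on day 5 at an FPKM of 9.28.

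WT1, the zinc finger factor used to define epicardial cells, had the largest log2 difference between passaged and NP-ctrl cells among the 7 genes tested. It had 0 counts in all 3 arms on day 3, and at most 2 counts in the shared libraries. In NP-ctrl the FPKM was 0, 1.30, 9.68 and 10.0 on days 3, 5, 7 and 10. In NP-IWP2 the values on these days were 0, 1.30, 6.67 and 3.53. Passaged cells had 0, 0.04, 0.02 and 0.01, which were 0, 5, 2 and 1 counts against 0, 166, 1043 and 1097 counts in NP-ctrl. The static arms thus rose together to day 5 and parted afterwards, while the passaged libraries of days 5 to 10 lay at a few reads. The passaged library was 32.4-fold lower than NP-ctrl on day 5 (95% interval 13.6 to 101), 589.8-fold lower on day 7 (163 to 4877) and 1240.0-fold lower on day 10 (222 to 49022). Between days 5 and 7 the level in NP-ctrl rose 7.43-fold (6.30 to 8.80), and from day 7 to day 10 the ratio was 1.04 (0.95 to 1.13).

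WT1-AS, which shares 47 exonic bases with WT1 on the opposite strand, was read beside it. Its counts on days 5, 7 and 10 were 21, 143 and 127 in NP-ctrl and 11, 105 and 77 in NP-IWP2, and 0 in every passaged library. That was 7.38% to 16.9% of the WT1 count in these static libraries. The sense and antisense genes were thus detected in the same libraries, with WT1 the larger count in each. Whether reads were counted by strand was not stated, so reads from the shared bases cannot be assigned.

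**Figure D2:**
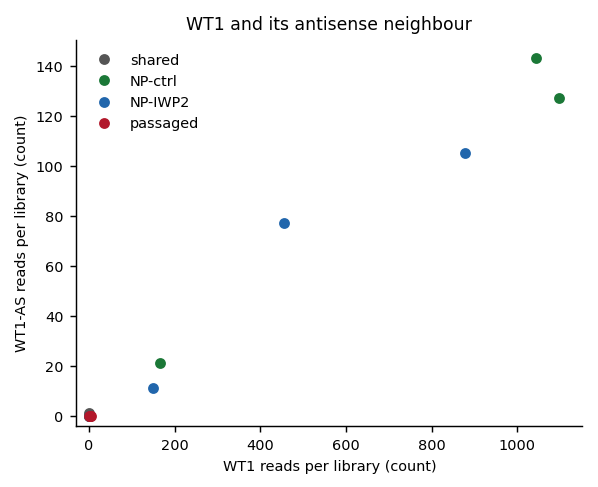
Counts of WT1-AS against counts of WT1, 1 point per library, coloured by arm. The 6 static libraries of days 5 to 10 run from 149 to 1097 WT1 counts with 11 to 143 WT1-AS counts, and all passaged libraries sit near the origin, with at most 5 WT1 counts and 0 WT1-AS counts.

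TCF21, a basic helix-loop-helix factor of epicardium-derived fibroblasts, followed another course. It appeared earlier than WT1, with 18 counts on day 2 (FPKM 0.24). In NP-ctrl its FPKM was 7.69, 7.29, 5.66 and 6.91 on days 3, 5, 7 and 10. NP-IWP2 had 3.12, 4.50, 2.82 and 6.18. Passaged cells had 1.63, 1.09, 0 and 0. The passaged values were below those of both static arms on all 4 days, with no overlap of the ranges. On day 3, 1 day after the arms were divided, the passaged value of TCF21 was already 4.72-fold below that of NP-ctrl (95% interval 3.73 to 6.05). It was 6.71-fold lower on day 5 (5.12 to 8.93). With 0 counts on days 7 and 10, a level of up to 0.0544 and 0.0536 FPKM is allowed by the 3 counts taken as the detection floor, and TCF21 was at least 104-fold and at least 129-fold lower on those days. TARID shares 863 exonic bases with TCF21 on the opposite strand, 23.5% of the exonic length of TCF21. TARID had 9, 58, 31 and 124 counts in NP-ctrl and 6, 12, 1 and 8 in passaged cells, beside 460, 420, 276 and 342 counts of TCF21 in NP-ctrl.

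BNC1, the first basonuclin, reached the highest level of the set. Its FPKM in NP-ctrl was 0.95, 14.0, 36.0 and 53.7 on days 3, 5, 7 and 10. In NP-IWP2 it was 0.73, 14.1, 12.6 and 15.2, and in passaged cells 0.86, 1.75, 0.94 and 0.48. The 3 arms were close on day 3, where the ratio of passaged to NP-ctrl was 0.907 (95% interval 0.633 to 1.29). The passaged library was then lower by 7.99-fold on day 5 (6.66 to 9.65), 38.4-fold on day 7 (30.2 to 49.5) and 111-fold on day 10 (80.2 to 159). BNC1 thus went from an FPKM of 0.03 on day 2 to between 0.73 and 0.95 in every arm on day 3, and its later values above 10 were all in static libraries.

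BNC2, the second basonuclin, was the only member above an FPKM of 1 in undifferentiated cells. It fell between days 0 and 1, by a ratio of 0.276 (95% interval 0.229 to 0.331). In NP-ctrl it then rose to 1.33, 10.4 and 13.4 on days 3, 5 and 7 and stood at 8.50 on day 10. NP-IWP2 had 0.79, 4.0, 2.22 and 1.76, and passaged cells 0.67, 1.05, 0.21 and 0.03. The highest passaged value was below the lowest value of NP-ctrl. The passaged library was 1.98-fold lower than NP-ctrl on day 3 (1.62 to 2.44), 9.95-fold on day 5 (8.72 to 11.4), 63.9-fold on day 7 (48.0 to 86.9) and 283-fold on day 10 (137 to 705).

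UPK3B, a uroplakin that marks mesothelium, changed the order of its arms with time. On day 3 it had 22 counts in passaged cells (FPKM 0.63), 0 in NP-ctrl and 1 in NP-IWP2. On days 5, 7 and 10 its FPKM was 1.14, 9.0 and 11.5 for NP-ctrl, 0.61, 1.81 and 1.53 for NP-IWP2, and 0.18, 0.49 and 0.08 for the passaged arm. Passaged cells were therefore highest on day 3 and lowest on each later day. The ratio to NP-ctrl was at least 8.71-fold higher on day 3, then 6.40-fold lower on day 5 (95% interval 2.87 to 16.8), 18.2-fold on day 7 (11.5 to 30.7) and 149-fold on day 10 (50.7 to 727). The near copies UPK3BL1 and UPK3BL2 and the pseudogene UPK3BP1 had at most 4 counts in the libraries of days 3 to 10.

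The other surface genes were scarce. UPK1B, a tetraspanin partner of the uroplakins, had at most 14 counts in any library, and its highest FPKM was 0.40 in NP-ctrl on day 5. MSLN, which encodes mesothelin, had 13, 22, 30 and 44 counts for NP-ctrl, 27, 25, 14 and 6 for NP-IWP2 and 11, 14, 18 and 1 for the passaged arm. Its FPKM reached 1 in the NP-ctrl library of day 10 alone, at 1.26. On that day the passaged library was 49.7-fold lower, but with 1 count the interval ran from 8.47 to 2009.

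ALDH1A2, the retinaldehyde dehydrogenase of early mesoderm and epicardium, ran against the other members. Its FPKM on days 3, 5, 7 and 10 was 3.04, 9.28, 0.80 and 0.19 in passaged cells, 1.06, 0.53, 0.14 and 0.23 in NP-ctrl, and 0.50, 0.86, 0.11 and 0.15 in NP-IWP2. The passaged library exceeded NP-ctrl 2.87-fold on day 3 (95% interval 2.35 to 3.52), 17.4-fold on day 5 (13.6 to 22.5) and 5.78-fold on day 7 (3.34 to 10.7). On day 10 all arms were low, with 23, 25 and 19 counts in passaged, NP-ctrl and NP-IWP2 cells, and the ratio of passaged to NP-ctrl was 0.814 (0.441 to 1.49). The passaged peak on day 5 was 1152 counts, where NP-ctrl had 68 and NP-IWP2 had 99. The overlapping antisense genes AQP9 and ALDH1A2-AS1 had at most 1 and 0 counts.

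**Figure D3:**
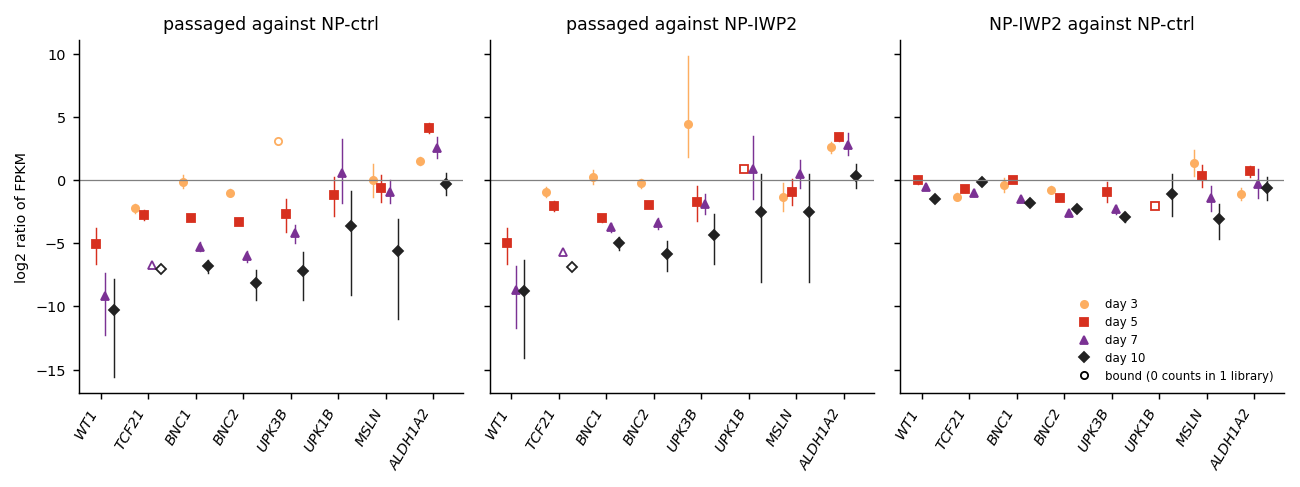
Log2 ratio of FPKM between arms for each gene and day, with exact 95% intervals from counts; open symbols are bounds where 1 library had 0 counts, and pairs with at most 3 counts in both libraries are left out. In passaged cells against NP-ctrl WT1, BNC2 and BNC1 were 1240.0-fold, 283-fold and 111-fold lower on day 10 and TCF21 at least 129-fold lower, and ALDH1A2 lay above 0 until day 7.

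Counted by day, the exact interval of the ratio of passaged to NP-ctrl excluded 1 downward for 2, 5, 6 and 7 of the 8 genes on days 3, 5, 7 and 10. Over all 21206 genes tested the share was 22%, 23.4%, 32.8% and 35.6% on these days. Upward it excluded 1 for 2, 1, 1 and 0 of the 8 genes, beside 30.8%, 26.8%, 21.2% and 22.4% of all genes. UPK3B and ALDH1A2 were the genes higher on day 3, and ALDH1A2 was the gene higher on days 5 and 7. MSLN on day 7 was the 1 gene whose place in these counts depended on the scaling of the libraries, its interval holding 1 after TMM scaling or without mitochondrial genes.

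What replating on day 2 did in the absence of a WNT inhibitor was then tested across days, as passaged against NP-ctrl. It was fitted with edgeR on the counts of the 12 libraries sampled after the arms divided, blocked by day. The spread is therefore how much the arm effect varied over the days of 1 culture series, not over independent differentiations. Of the 7 genes tested, 4 were lower in passaged cells and 0 higher at an adjusted p under 0.05, where 2.76% of all genes were called lower and 1.64% higher. WT1 fell by 7.83 on the log2 scale (SE 0.72, edgeR adjusted p = 0.000877), and its passaged library was the lower on all 3 days with counts. WT1 passed the filter through static libraries alone, so it could only be tested if it was high there. BNC2 fell by 4.07 (SE 0.85, edgeR adjusted p = 0.0234), BNC1 by 3.70 (SE 0.89, edgeR adjusted p = 0.0419) and TCF21 by 3.80 (SE 0.92, edgeR adjusted p = 0.0419), each lower on 4 of 4 days. ALDH1A2 differed by 2.14 (SE 0.54, edgeR adjusted p = 0.0512), UPK3B by -2.67 (SE 1.40, edgeR adjusted p = 0.342) and MSLN by -1.50 (SE 0.76, edgeR adjusted p = 0.321), none past the threshold. The median log2 change of the 7 was -3.70, beside -0.0025 for all genes tested. UPK3B and MSLN, like WT1, passed the filter through static libraries alone. The genes were also chosen with earlier results of these data known, so this median is a description only.

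These calls rested on few libraries. Without day 3 the fit called 6 members, adding UPK3B as lower (-4.47, edgeR adjusted p = 0.00226) and ALDH1A2 as higher (2.52, edgeR adjusted p = 0.0394), where 11.2% of all genes were called. Without day 5 or without day 7 it called WT1 alone, beside 1.33% and 0.627% of all genes, and without day 10 it called WT1 and ALDH1A2, beside 1.52%. When only the libraries of these 2 arms entered the fit, WT1 was again the only call (0.514% of all genes), and limma on log2(FPKM + 1) called TCF21 and BNC2 (0.769%). Limma on log2(FPKM + 0.1), limma on log2(TPM + 1) and edgeR with no day block called 0 members, beside 1.05%, 0.509% and 0.00472% of all genes. DESeq2 called 5, adding ALDH1A2 as higher (10.1% of all genes), and edgeR with no filter called 6, adding ALDH1A2 as higher and UPK3B as lower (6.2%). A fit in which the arm difference grows from day 2 called 6 members lower, all but ALDH1A2, where 7.8% of all genes were called lower. WT1, UPK3B and MSLN reached an FPKM of 1 in static libraries alone, so the filtered fits could test them only if they were high there.

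Passaged cells were compared with NP-IWP2 in the same fit, which asks how replating differed from WNT inhibition in static culture. Of the 7 genes tested, 1 was called lower and 1 higher in passaged cells, beside 0.915% and 0.415% of all genes. WT1 fell by 7.11 (SE 0.71, edgeR adjusted p = 0.00355), and its counts were 5, 2 and 1 against 149, 877 and 455 on days 5, 7 and 10. Here too WT1 could only be tested if it was high in static libraries. ALDH1A2 rose by 2.62 (SE 0.54, edgeR adjusted p = 0.0420) and was the higher on 4 of 4 days, by 6.06-fold on day 3 (95% interval 4.55 to 8.21) and 10.8-fold on day 5 (8.77 to 13.4). On day 10 the difference was within counting error, with 23 against 19 counts and a ratio of 1.26 (0.656 to 2.45). TCF21 (-3.09, SE 0.93), BNC1 (-2.57, SE 0.85) and BNC2 (-2.07, SE 0.78) had edgeR adjusted p values of 0.168, 0.209 and 0.278. On day 10 alone the passaged library was 31.5-fold lower for BNC1 (22.7 to 45.3), 58.6-fold lower for BNC2 (28.2 to 147) and at least 115-fold lower for TCF21. Leaving out day 7 left 0 calls, beside 0.0613% of all genes, with the edgeR adjusted p at 0.0802 for WT1 and 0.290 for ALDH1A2. Without day 5 WT1 was the only call (0.24% of all genes), and without day 3 the calls were WT1, BNC1 and BNC2 (3.18%). Limma on log2(FPKM + 1), on log2(FPKM + 0.1) and on log2(TPM + 1) and edgeR with no day block called 0 members, beside 0.0283%, 0.099%, 0.0283% and 0.00943% of all genes.

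NP-IWP2 against NP-ctrl asks what WNT inhibition changed in static culture, and it shares the NP-ctrl libraries with the comparison of passaged cells above. Of the 7 genes tested edgeR called 0, beside 0.0189% of all genes. At an unadjusted p under 0.05 edgeR had 1 member, BNC2, beside 4.76% of all genes, and DESeq2 and limma on log2(FPKM + 1) also called 0 members after adjustment, beside 0.259% and 0% of all genes. BNC2 differed by -1.99 (SE 0.71, edgeR adjusted p = 0.973) and was lower in NP-IWP2 on 4 of 4 days. With the 2 static arms fitted alone, BNC2 (-1.79, edgeR adjusted p = 0.00483) and UPK3B (-2.07, edgeR adjusted p = 0.0279) were called lower, where 0.839% of all genes were.

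On day 10 the single NP-IWP2 library was lower than NP-ctrl by 2.84-fold for WT1 (95% interval 2.54 to 3.17), 3.53-fold for BNC1 (3.30 to 3.77), 4.83-fold for BNC2 (4.34 to 5.38) and 7.51-fold for UPK3B (5.74 to 9.99). TCF21 was not among them, at 6.18 against 6.91 FPKM, a ratio of 0.895 (0.769 to 1.04), though scaled to TPM its interval lay below 1. On day 5 the 2 static arms were within counting error for WT1, with a ratio of 0.994 (0.792 to 1.25), and for BNC1, with 1.01 (0.925 to 1.10). The ratio for BNC2 on that day was 0.384 (0.355 to 0.415). Downward the interval excluded 1 for 3, 4, 6 and 5 of the 8 genes on days 3, 5, 7 and 10, beside 14.7%, 14%, 26.6% and 27.2% of all genes. Scaled to TPM, the number on day 10 was 6.

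Time itself was compared between days 10 and 3, with 1 library of each arm on either day. Of the 7 genes tested 2 were called higher and 1 lower on day 10, beside 17.9% and 17.1% of all genes. WT1, at 0 counts in each day 3 library, was higher in 3 of 3 arms (edgeR adjusted p = 0.000114), though by 1 count in passaged cells. BNC1 rose by 3.26 (SE 1.04, edgeR adjusted p = 0.0303), higher in both static arms and lower in passaged cells. ALDH1A2 fell by 2.45 (SE 0.63, edgeR adjusted p = 0.0109) and was lower in 3 of 3 arms. Without the passaged arm 5 members were called, with UPK3B (8.39, edgeR adjusted p = 1.8e-05) and BNC2 (edgeR adjusted p = 0.00129) added as higher, where 34.2% of all genes were called. Without NP-IWP2 WT1 was the only call (10.5% of all genes).

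The set was read beside 22 other genes of epicardium and mesothelium, a list chosen with earlier results of these data known. Of the 19 that passed the filter, 4 were called lower and 0 higher in the passaged arm relative to NP-ctrl, with a median log2 change of -0.74. Over all genes tested 2.76% were called lower and 1.64% higher, with a median of -0.0025. RSPO1, a WNT agonist, fell by 7.69 (SE 1.15, edgeR adjusted p = 0.00506). TBX18, a T-box factor of proepicardium and epicardium, fell by 5.86 (SE 1.36, edgeR adjusted p = 0.0360). Its FPKM rose to 40.6 in NP-ctrl and 65.1 in NP-IWP2 on day 10 and stayed at or below 0.11 in passaged cells. CALB2, which encodes calretinin, fell by 3.58 (edgeR adjusted p = 0.0149) and ANXA8 fell by 4.64 (edgeR adjusted p = 0.0205). TBX18, RSPO1 and ANXA8, like WT1, reached an FPKM of 1 in static libraries alone and so could only be tested if they were high there.

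Other genes of that list did not separate the arms in this way. LRRN4, a mesothelial surface gene, was at 25.1, 41.4, 82.1 and 39.5 FPKM in passaged cells and at 6.98, 18.4, 40.3 and 55.1 in NP-ctrl. KRT19, a keratin of mesothelium and many other epithelia, ranged from 203 to 467 FPKM in NP-ctrl and from 33.7 to 443 in passaged cells. Its lowest passaged value thus lay below every NP-ctrl value. The 3 genes of the list that did not pass the filter were the mesothelial genes MUC16, PRG4 and ITLN1, which reached at most 0.03, 0.19 and 0.60 FPKM, whereas the members UPK3B and MSLN reached 11.5 and 1.26.

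**Figure D4:**
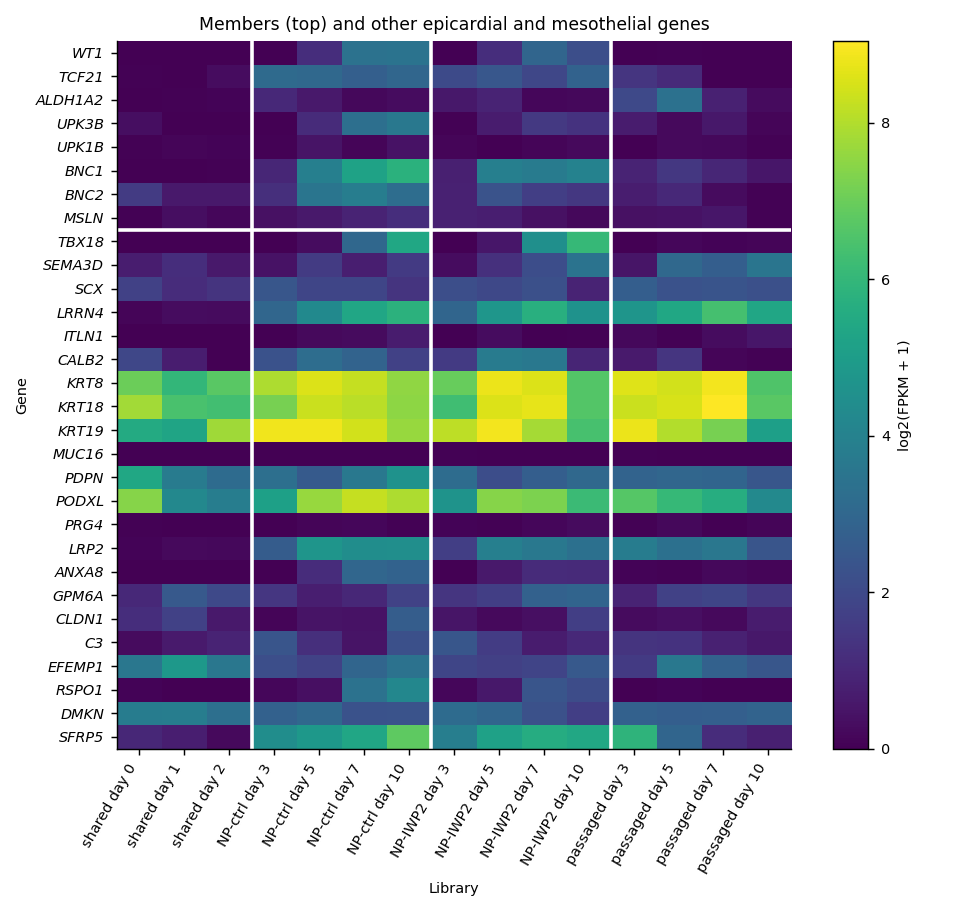
Level as log2(FPKM + 1) of the 8 members (above the white line) and 22 other epicardial and mesothelial genes in each of the 15 libraries, ordered by arm and day. TBX18, RSPO1 and ANXA8 share the dark passaged columns of WT1, BNC1 and UPK3B, whereas LRRN4, KRT8 and KRT18 are bright in all 3 arms.

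Of 15 factors of the proepicardium and septum transversum, 14 were tested (median log2 change -0.38). In the same comparison 3 were lower and 1 higher, beside 2.76% and 1.64% of all genes. TBX18 was 1 of the 3, and the others were HLX (-3.42, SE 0.46, edgeR adjusted p = 0.00298) and MAB21L2 (-5.42, SE 1.16, edgeR adjusted p = 0.0262). MEIS1, a homeobox factor of early heart mesoderm, rose by 0.63 (SE 0.15, edgeR adjusted p = 0.0372). Of 16 genes of epicardium-derived mesenchyme, all tested, 5 were lower and 0 higher (median -1.08). They were SNAI1 (-2.16, edgeR adjusted p = 0.00560), SNAI2 (-2.10, edgeR adjusted p = 0.0212), the matrix proteoglycan genes DCN (-7.07, edgeR adjusted p = 0.0225) and LUM (-7.21, edgeR adjusted p = 0.0303), and the collagen gene COL1A2 (-2.54, edgeR adjusted p = 0.0336).

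ALDH1A2 belongs to the retinoic acid pathway, whose other genes were read beside it. Of 15 genes tested, 1 was higher and 2 lower in passaged cells against NP-ctrl, beside 1.64% and 2.76% of all genes. The median log2 change of the 15 was -0.23, with 5 above 0 and 10 below. RARB, a retinoic acid receptor, rose by 2.39 (SE 0.39, edgeR adjusted p = 0.00791). Its FPKM was 8.78, 25.3, 6.13 and 5.08 in passaged cells against 4.03, 4.37, 0.78 and 0.54 in NP-ctrl. ALDH1A1, another enzyme that makes retinoic acid, fell by 5.17 (SE 0.61, edgeR adjusted p = 0.00127). On day 10 its FPKM was 17.0 for NP-ctrl, 13.1 for NP-IWP2 and 0.44 for passaged cells. RBP4, a retinol carrier made by the liver, fell by 7.56 (SE 0.81, edgeR adjusted p = 0.000877). CYP26A1, which degrades retinoic acid, went from 32.4 on day 2 to day 3 values of 4.23 for NP-ctrl, 18.9 for NP-IWP2 and 0.12 for passaged cells. Whether retinoic acid signalling differed between the arms was not tested.

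**Figure D5:**
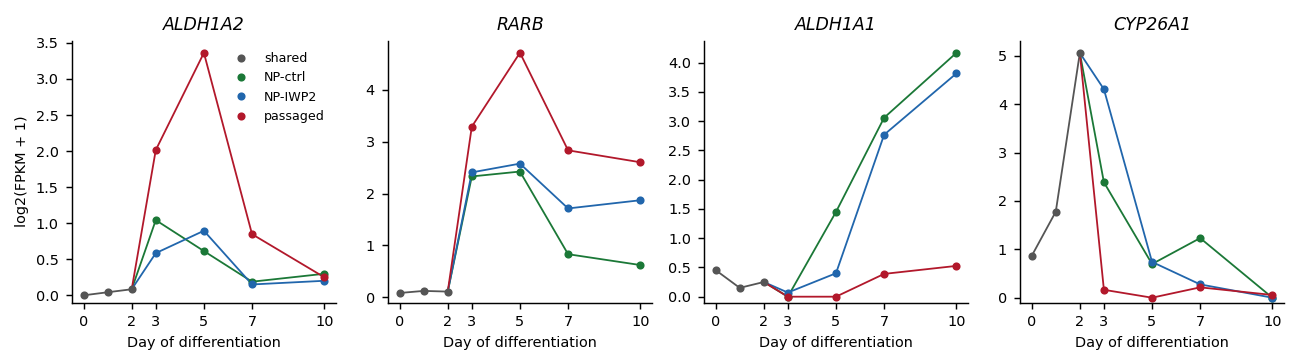
Level as log2(FPKM + 1) of ALDH1A2 and 3 other genes of the retinoic acid pathway against day, 1 point per library. ALDH1A2 and RARB both peaked in the passaged library of day 5, at 9.28 and 25.3 FPKM, while ALDH1A1 rose in the static arms to 17.0 and 13.1 on day 10.

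Markers of other cell types also differed between the arms, in either direction. Over all genes tested, 2.76% were called lower and 1.64% higher in passaged cells against NP-ctrl. Of 10 hepatic and endoderm genes, 5 were lower and 0 higher in passaged cells against NP-ctrl (median log2 change -4.65), among them AFP, HNF4A, SERPINA1 and TTR. Their summed FPKM ranged from 21.2 to 4041 in NP-ctrl, from 26.6 to 1198 in NP-IWP2 and from 3.69 to 23.1 in passaged cells, and AFP on day 10 was 2366, 716 and 0.23. On day 3, the NP-ctrl library had 2 genes of this list at 0, NP-IWP2 had 3 and the passaged library 2, AFP in each. On days 5, 7 and 10, 0 genes were at 0 in the static arms, and 1, 2 and 1 in passaged cells. Of 8 genes of amnion and surface ectoderm, 3 were lower (CDX2, GATA3 and GABRP), with sums from 26.6 to 66.5, 21.5 to 43.4 and 4.53 to 40.5 in the 3 arms. Of 10 cardiomyocyte genes 3 were higher in passaged cells and 0 lower (MYH7, RYR2 and TNNC1), with sums of up to 703 for NP-ctrl, 2614 for NP-IWP2 and 4504 for passaged cells. NKX2-5 on day 10 was 26.2, 92.3 and 287, and TNNT2 was 21.8, 42.8 and 55.5. The part of these cells in the levels of WT1, TCF21, BNC1, BNC2 and UPK3B was not tested.

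The other tissues in which members are known to be active were read by day. Of 11 genes of kidney and gonad precursors 6 were tested. EYA1 was higher in passaged cells (2.13, SE 0.29, edgeR adjusted p = 0.00357) and 0 were lower, beside 1.64% and 2.76% of all genes. The sum of this list was 179 on day 2 and 21.7, 41.2 and 29.0 on day 3 for NP-ctrl, NP-IWP2 and passaged cells, when WT1 had 0 counts, and LHX1 gave 177, 18.3, 37.9 and 23.6 of these sums. On days 5, 7 and 10 the sum was 3.79, 8.61 and 12.9 for NP-ctrl, where WT1 also rose. For NP-IWP2 it was 3.24, 3.82 and 3.38, and for passaged cells 8.06, 8.62 and 5.05. PAX2 was at 0 in NP-ctrl on days 7 and 10, when WT1 was highest, and at most 1.51 in any library. Of 7 urothelium genes 2 passed the filter and 0 were called, and the sum of the list was at most 2.42 for NP-ctrl, 1.91 for NP-IWP2 and 4.81 for passaged cells. The 8 somite genes summed to 170.5 on day 2 and to 74.8, 92.0 and 13.03 on day 3 for NP-ctrl, NP-IWP2 and passaged cells. The 6 genes of branchiomeric muscle, where TCF21 also acts, had sums of 38.9 to 80.3 for NP-ctrl, 36.6 to 63.8 for NP-IWP2 and 30.7 to 46.3 for passaged cells. Of these somite and branchiomeric genes and of 7 endothelial genes, 0 were called for passaged against NP-ctrl by edgeR. The part of these tissues in the members' levels was not tested.

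Finally, the profiles over the 15 libraries were set against each other as a description. The points share the day course and each library's depth, so no p is given. Pearson's r of log2(FPKM + 1) was 0.929 for WT1 with BNC1, 0.922 for WT1 with UPK3B, 0.874 for UPK3B with BNC1 and 0.847 for BNC1 with BNC2. TCF21, which rose earlier, had 0.626 with WT1 and 0.768 with BNC1. With ALDH1A2 the other 7 members ranged from -0.327 to 0.0465, and RARB gave 0.830. WT1 also had r of 0.903 with AFP, 0.877 with TBX18, 0.918 with LUM and 0.335 with NKX2-5.

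Among 10165 protein-coding genes that reached an FPKM of 5 in any library, profiles close to WT1 included SPRR2F (0.983) and DSC3 (0.982). The 3 closest to BNC1 were CPED1 (0.983), LUM (0.979) and IGF2 (0.974), and for BNC2 they were RIPOR3 (0.955), GDF7 (0.946) and FOSL2 (0.935). UPK3B was closest to ANXA8 (0.983), KCNIP1 (0.978) and RUNX2 (0.970). TCF21 was closest to SPIN4 (0.946), FBXL4 (0.933) and WIPF1 (0.904). For ALDH1A2 they were PRDM1 (0.935), NHS (0.860) and CD82 (0.858), and PRDM1 and NHS were highest in the passaged library of day 5. The sparse counts of MSLN and UPK1B gave lower values, up to 0.877 for MSLN with CLDN15, ahead of PLXNA3 and BTBD19, and up to 0.712 for UPK1B with RUFY3, ahead of MDM2 and HSPB6.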

How the data were processed

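RNA-seq of 15 libraries was analysed. Per the submitters' processing notes the tools were cutadapt 1.9.1, HISAT2 2.0.1, HTSeq 0.6.1 and DESeq2 on hg38. The labels also name a long-read library kit, which these short-read tools do not match, and the strand setting was not given in the sources used here. The authors deposited 1 table of whole-number counts per gene and of FPKM, which is the count divided by exonic length and by the library's total count. FPKM was recomputed from the counts to within 0.005. There were 0 value columns that belonged to no sample. Of the gene identifiers, 60463 matched GENCODE 44, whose coordinates equalled those of the 8 genes.

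Genes that reached an FPKM of 1 in any library were kept. The arm comparisons used the quasi-likelihood test of edgeR 4.0.16 in R 4.3.3, with TMM scaling and with arm and day as factors over the 12 libraries of days 3 to 10. Day 10 was compared with day 3 in the same fit. P-values were two-sided and adjusted by the Benjamini-Hochberg method over all 21206 genes tested, with a threshold of 0.05. The code was tested on simulated data. DESeq2 1.42.0 and limma 3.58.1 on log2(FPKM + 1), log2(FPKM + 0.1) and log2(TPM + 1) were alternatives, as were RLE scaling, other filters, exclusion of mitochondrial genes, other designs and leaving out each day or arm.

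Ratios between single libraries were FPKM ratios with exact 95% intervals (Clopper-Pearson on the share of the summed counts). Without molecular identifiers these and the Poisson intervals cover counting error only. A count of 0 was replaced by a floor of 3 counts per library and the ratio given as a bound, a ratio with 1 to 3 counts was given with its interval, and none was given where both counts were at or under 3.

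The 8 genes and the gene lists were chosen with earlier results of these data known. All 8 were named, with the 3 protein-coding genes of highest Pearson correlation to each among genes with an FPKM of at least 5, and, per other list, up to 4 genes past the test of passaged against NP-ctrl in order of adjusted p, plus TBX18, NKX2-5, TNNT2, AFP, PAX2 and KRT19. Overlapping and related genes, COL1A2, TTR, LRRN4, KRT8, KRT18, MUC16, PRG4, ITLN1, CYP26A1 and LHX1 were named after their values were seen. Some genes that this rule would name are not reported here.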

Additional observations from a re-analysis of the deposited data

Results flagged for a closer look

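UPK3B lay on opposite sides of the static arms on different days. Its FPKM ratio of passaged to NP-ctrl was at least 8.71 on day 3, then 0.156 on day 5, 0.0549 on day 7 and 0.00670 on day 10. Against NP-IWP2 the ratio was 21.7 on day 3, with 22 counts against 1, then 0.295 on day 5, 0.273 on day 7 and 0.0504 on day 10. ALDH1A2 in NP-IWP2 relative to NP-ctrl was 0.473 on day 3, with 55 against 140 counts, and 1.61 on day 5, with 99 against 68 counts. The same ratio for MSLN was 2.50, 0.383 and 0.116 on days 3, 7 and 10, from counts of 27 against 13, 14 against 30 and 6 against 44. Each of these intervals excluded 1, and the direction changed with the day. With 1 library per arm and day, the difference between days was not tested.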

How the results depend on the processing

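In passaged against NP-ctrl, 4 members were called, beside 4.4% of all genes. Their number was 5 by DESeq2 (10.1% of all genes), 6 with no filter (6.2%) and 6 with an arm difference growing from day 2 (14.4%). It was 2 by limma on log2(FPKM + 1) (0.769%), 0 on log2(FPKM + 0.1) (1.05%) and 0 on log2(TPM + 1) (0.509%). It was 2 with a mean FPKM of at least 1 (4.93%), 1 with only the compared arms (0.514%) and 0 with no day block (0.00472%). Leaving out a day gave 1 to 6 (0.627% to 11.2%). Except with no filter, WT1, UPK3B and MSLN could be tested only if they were high in static libraries. In passaged against NP-IWP2, 2 were called (1.33% of all genes), with 0 by limma on each of these scales (0.0283% to 0.099%). The number was 5 with no filter (3.3%), 1 with a mean FPKM of at least 1 (1.44%) and 1 with only the compared arms (0.769%). It was 0 with no day block (0.00943%), 4 with an arm difference growing from day 2 (3.16%), and 0 to 3 leaving out a day (0.0613% to 3.18%). In NP-IWP2 against NP-ctrl, 0 were called (0.0189% of all genes), with 2 with no filter (0.897%), 2 with only the compared arms (1.31%) and 1 with a growing difference (0.226%). Between days 10 and 3, 3 were called (35% of all genes), with 1 by limma on log2(TPM + 1) (31.1%), and 1 to 5 leaving out an arm (10.5% to 34.2%). The cause was not tested.

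Of the results on single genes, 307 kept their direction and side of the threshold, 49 no longer passed it, 24 newly passed it and 8 changed sign, all 8 on leaving out a day or arm and none past the threshold. UPK3B in passaged against NP-IWP2 ranged from -2.29 to 0.21, and MSLN in NP-IWP2 against NP-ctrl from -1.43 to 0.11. Between days 10 and 3, TCF21 ranged from -2.26 to 0.41, BNC2 from -1.02 to 1.903 and MSLN from -2.50 to 0.49. Relative to the library totals, TPM shifted all log2 ratios of passaged to NP-ctrl by 0.28 on day 3 and -0.29 on day 10, and TMM by -0.09 and 0.18.

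The labels give no replicate numbers to pair samples by, and libraries were matched by day in the fit. Counts of 0 to 3 (WT1 and TCF21 in late passaged libraries, UPK3B on day 3) limit those ratios to bounds or wide intervals, and MSLN and UPK1B never exceeded 44 counts.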
